A study of Mus musculus with 4 samples.

Results

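The genes described here are the numbered zinc finger protein genes of the mouse, those whose symbol on the array platform begins with Zfp and a number. Zfp36 and its Zfp36l relatives, which encode RNA-binding proteins of another kind, were left out. In all, 162 of the 10225 genes with a spot assigned to 1 gene met this rule, on 270 of 18511 such spots. By RefSeq, 159 of the 162 are protein-coding genes, Zfp652os and Zfp783 are long non-coding RNA genes, and Zfp862-ps is a transcribed pseudogene. A further 21 spots that name a Zfp gene together with other genes were not used.

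RNA came from the spinal cords of female adult mice of the SJL/J strain, either controls or mice with AT-EAE. This is adoptive-transfer experimental autoimmune encephalomyelitis, in which T cells that react to myelin are given to recipients as a model of multiple sclerosis. Each extract pooled the cords of 2 mice, and a 2-colour cDNA array was hybridised with 2 extracts, both from 1 group. Each group had 2 arrays and 4 extracts, and the arrays are named after them: C12 and C34 for control extracts 1 and 2, and 3 and 4, and E12 and E34 for the AT-EAE extracts. No treatment of the control mice, stage of disease or source of the transferred cells is given in the sources used here. The deposited value of a spot is a log ratio of its 2 channels, taken here as log2, so it compares 2 extracts of 1 group and never AT-EAE with control cord. Whether a spot has a value at all can be compared between groups, and that comparison comes first.

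Most Zfp genes encode DNA-binding proteins built of C2H2 zinc fingers, small loops in which cysteine and histidine residues hold a zinc ion and neighbouring fingers read successive bases. Many carry a KRAB domain, which recruits the corepressor TRIM28 and histone methylation and heterochromatin proteins to silence transposable elements and some genes. They form one of the most numerous families of transcription regulators in mammals and lie partly in clusters of related copies. Related copies can share sequence, so a cDNA spot may also bind RNA of a relative, and the ratio of a single clustered Zfp gene is uncertain to that extent.

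Fewer Zfp genes had a value on the AT-EAE arrays than on the control arrays, and the shortfall against other genes was larger there. Values were present for 132 of the 162 genes on C12, 122 on C34, 94 on E12 and 57 on E34. These were 81.5%, 75.3%, 58.0% and 35.2% of the genes. Both AT-EAE arrays thus lay below both control arrays. The mean share was 78.4% ± 4.36 (SD, n = 2 arrays) for control cord, against 46.6% ± 16.1 (SD, n = 2 arrays) for AT-EAE cord, a change of -31.8 percentage points. Permuting the 4 arrays over the groups in all 6 ways (exact permutation test, 2-sided) gave p = 0.333, the smallest p that 4 arrays allow. Whether a missing value reflects less RNA was not tested, and in bulk samples fewer cells of a type and less RNA per cell cannot be told apart.

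Zfp genes had slightly fewer spots than other genes, with a mean of 1.67 against 1.81, and 56.2% against 50.4% had a single spot. The 10063 other genes were therefore weighted to the same distribution of spot numbers, with genes of 6 or more spots combined. The share of these matched genes with a value was 85.0% on C12, 78.4% on C34, 70.5% on E12 and 52.8% on E34. Zfp genes lay below them by 3.49 points on C12 and 3.06 points on C34. On E12 and E34 the shortfall was 12.4 and 17.6 points, so the groups did not overlap. The gap of Zfp genes to matched genes, Zfp minus matched, was -3.28 ± 0.31 points (SD, n = 2 arrays) for control cord, against -15.0 ± 3.67 points (SD, n = 2 arrays) for AT-EAE cord, a difference of -11.7 points (2-sided exact permutation p = 0.333). Of all 28704 spots, 73.6% had a value on C12, 64.7% on C34, 54.5% on E12 and 37.6% on E34. The AT-EAE arrays thus had both fewer values overall and larger gaps. Within AT-EAE, E34 had fewer values than E12 and the larger shortfall, at 17.6 against 12.4 points. Within control, C34 had fewer values than C12 and a slightly smaller shortfall, at 3.06 against 3.49 points. AT-EAE and this loss over the whole array cannot be told apart.

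**Figure D1:**
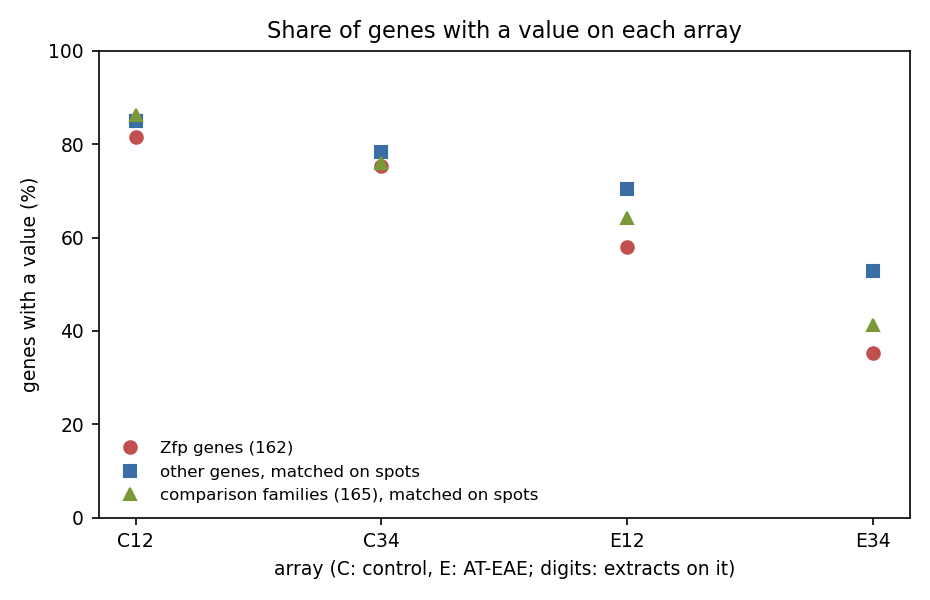
Percentage of genes with a value (y axis) on each of the 4 arrays (x axis), for the 162 Zfp genes, for all other genes weighted to the same number of spots, and for 165 genes of the comparison families weighted in the same way. Each point is 1 array; Zfp genes range from 81.5% on C12 to 35.2% on E34, and matched other genes from 85.0% to 52.8%.

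A difference of shares is bounded where most genes have values, so the odds of having a value were also compared within classes of equal spot number (Mantel-Haenszel odds ratio). The odds for Zfp genes were 0.75 and 0.82 times those of other genes on C12 and C34. On E12 and E34 they were 0.54 and 0.44 times those of other genes. On the log2 scale, the mean odds ratio was -0.34 ± 0.09 (SD, n = 2 arrays) for control cord, against -1.03 ± 0.21 (SD, n = 2 arrays) for AT-EAE cord (2-sided exact permutation p = 0.333). Spot by spot the contrast was weaker. Of the 270 Zfp spots, 73.0%, 64.1%, 46.3% and 26.7% had a value on C12, C34, E12 and E34, against 81.0%, 73.1%, 61.9% and 42.4% of the other assigned spots. Zfp spots thus fell short by several points on the control arrays too. Counted over spots, and matched on the spot number of their genes, the gap changed by -7.45 points from control to AT-EAE.

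The pattern differed with the number of spots of a gene. Of the 91 Zfp genes with 1 spot, 68.1% and 61.5% had a value on C12 and C34, against 76.1% and 67.1% of other single-spot genes. On E12 and E34 these shares were 44.0% and 22.0% for Zfp genes against 57.7% and 39.1%. For genes with 2 spots no shortfall was present in control: 97.9% and 93.6% of 47 Zfp genes had a value, against 94.9% and 90.2% of other genes. On the AT-EAE arrays the 2-spot Zfp genes were at 72.3% and 46.8%, below the 82.9% and 64.9% of other genes. With 3 spots, 16 of 16 Zfp genes had a value on C12, 14 on C34, 13 on E12 and 9 on E34. For other 3-spot genes the shares were 99.0%, 97.0%, 92.9% and 77.6%. Over the 71 Zfp genes with several spots, the number with a value on all their spots was 34, 25, 12 and 4 in the same order.

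**Figure D2:**
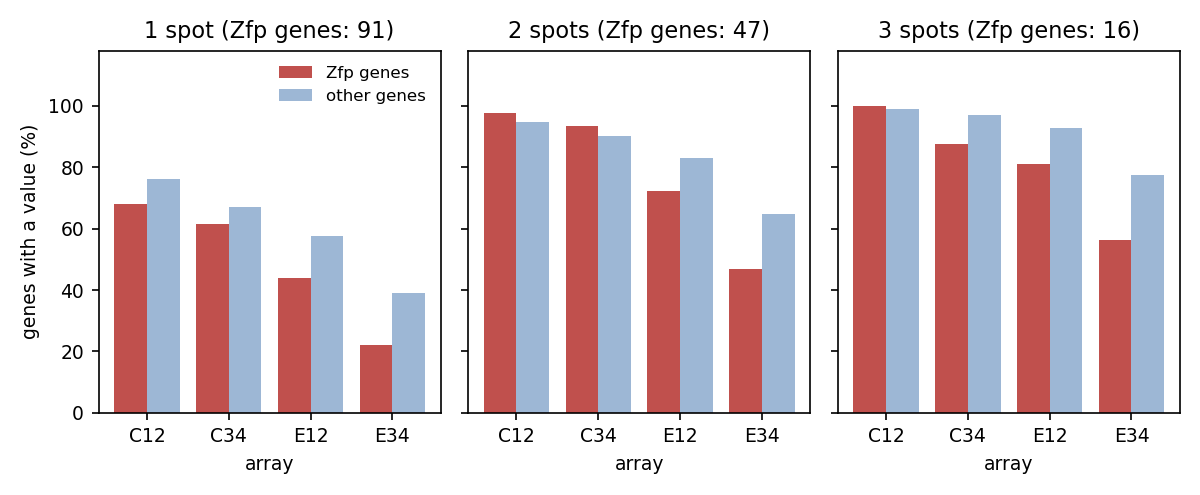
Percentage of genes with a value (y axis, from 0) on each array (x axis) for Zfp genes and other genes represented by 1, 2 or 3 spots. Bars are shares of genes on 1 array; among 2-spot genes Zfp genes are at 97.9% on C12 and 46.8% on E34.

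Missing values were mostly nested across the arrays, with 9 Zfp genes outside the nested patterns. Of the 162 Zfp genes, 54 had values on all 4 arrays, 35 lacked one on E34 alone, 30 had values on the control arrays alone, 8 on C12 alone and 26 on none. These nested patterns, in which each array from C12 to E34 holds part of the genes of the one before, took in 153 Zfp genes or 94.4%. They took in 95.1% of spot-matched other genes, a share close to that of Zfp genes. As a description, Zfp genes more often stopped earlier along this order. Values on all 4 arrays were present for 33.3% of Zfp genes against 50.9% of matched genes, and values on the control arrays alone for 18.5% against 9.46%. Values on no array were found for 16.0% against 13.0%.

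Of the 121 Zfp genes with values on both control arrays, 54 (44.6%) also had values on both AT-EAE arrays, against 66.2% of spot-matched other genes. The lower share was that of E34. E12 kept 89 of the 121, or 73.6%, against 87.3% of matched genes, while E34 kept 56, or 46.3%, against 66.8%. With a value on neither AT-EAE array there were 30 of the 121, or 24.8%, against 12.1% of matched genes. Gains were few for Zfp and other genes alike. From C12 to E12 there were 40 Zfp genes that lost a value and 2 that gained one, and from C34 to E34 there were 66 and 1. Of the 10063 other genes, 1466 lost and 84 gained a value in the first comparison, and 2623 and 117 in the second. The array numbers name extracts only, so which control array was set beside which AT-EAE array was arbitrary. No Zfp gene had values on both AT-EAE arrays and on neither control array, a pattern found in 13 of the 10063 other genes. One of these 13 is Zfp36, the excluded gene of tristetraprolin, a protein that speeds decay of cytokine mRNAs. It was at 0.04 on E12 and -0.03 on E34.

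**Figure D3:**
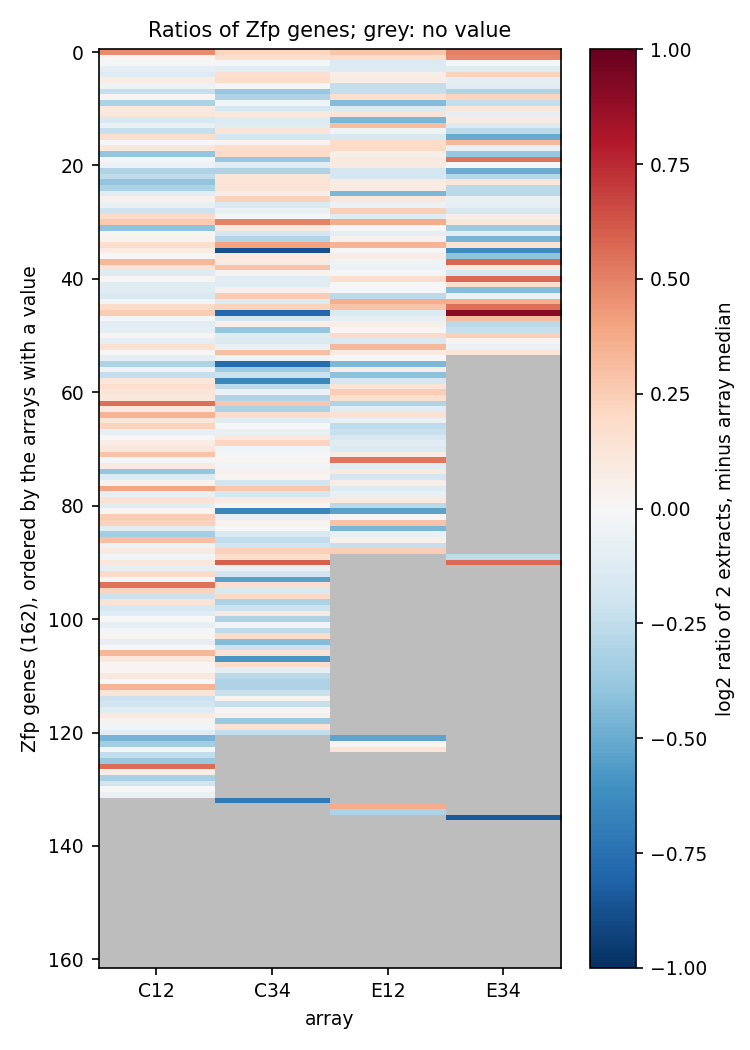
Log2 ratio between the 2 extracts of an array minus the median of all genes on that array (colour, from -1 to 1), for the 162 Zfp genes (rows) on the 4 arrays (columns), with grey for no value. Rows are ordered by the arrays with a value; 54 genes have values on all 4 arrays and 26 on none.

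The genes that kept and lost values included well-studied regulators. The list of 36 Zfp genes with known roles had 23 members on the array, of which 20 and 19 had values on C12 and C34, and 16 and 10 on E12 and E34. With values on all 4 arrays were 9 of them: Zfp110, whose product NRIF binds the p75 neurotrophin receptor; Zfp207, a spindle checkpoint factor; the ubiquitin ligase gene Zfp91; the pluripotency regulator gene Zfp281; Zfp335, needed in neural progenitors; Zfp318, known for IgD splicing in B cells; Zfp638, Zfp706 and Zfp804a. Without a value on E34 alone were 7, among them Zfp57, which protects imprinted methylation, Zfp148, a factor of GC-rich promoters, the chromatin gene Zfp462 and the developmental repressor genes Zfp503 and Zfp703. Zfp131 and Zfp330 completed that group. Zfp113 and Zfp622, the latter a factor of ribosome assembly, had values on the control arrays alone. Zfp787 had one on C12 alone, and Zfp292, Zfp385a and Zfp644 had none. The KRAB gene Zfp354a lacked a value on E12 alone.

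More spots did not always keep a value. The Zfp genes with most spots were Zfp592 and Zfp618 with 6, Zfp207 with 5, and Zfp131, Zfp362, Zfp410, Zfp821 and Zfp954, which tied at 4. The rule for named genes took 5, the tie broken by symbol, and Zfp410 and Zfp954 were added after their values were seen. Zfp131 lacked a value on E34, and Zfp592, Zfp618, Zfp207, Zfp362, Zfp410 and Zfp954 had values on all 4 arrays. Zfp821 had values on the control arrays alone, at -0.13 and 0.02. The further genes of that pattern with most spots were Zfp385b with 3, and Zfp113, Zfp267, Zfp275, Zfp511, Zfp516 and Zfp574 with 2. Some genes known for silencing or translation, named after their values were seen, fell on both sides. Zfp809, a KRAB repressor of murine leukaemia virus, had values on the control arrays alone. Zfp568, a KRAB repressor of a placental Igf2 transcript, and Zfp598, a ubiquitin ligase that senses stalled ribosomes, had values on all 4 arrays.

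To show sequence beside these patterns, the 250 bases before the gene start were taken from RefSeq's promoter table (GRCm38.p6) for 3 Zfp genes: for each pattern the gene with the GC content nearest the median of its pattern, among genes with 1 listed promoter. They are written 5′ to 3′ on the strand of the gene, with each CG dinucleotide in capitals.
Zfp91, chr19:12796124-12796373, minus strand, values on all 4 arrays: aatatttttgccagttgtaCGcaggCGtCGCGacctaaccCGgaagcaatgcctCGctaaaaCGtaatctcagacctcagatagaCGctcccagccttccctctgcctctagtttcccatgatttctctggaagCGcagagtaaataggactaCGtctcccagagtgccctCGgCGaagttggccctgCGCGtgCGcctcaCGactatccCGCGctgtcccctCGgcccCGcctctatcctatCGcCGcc
Zfp14, chr7:30051397-30051646, minus strand, values on the control arrays alone: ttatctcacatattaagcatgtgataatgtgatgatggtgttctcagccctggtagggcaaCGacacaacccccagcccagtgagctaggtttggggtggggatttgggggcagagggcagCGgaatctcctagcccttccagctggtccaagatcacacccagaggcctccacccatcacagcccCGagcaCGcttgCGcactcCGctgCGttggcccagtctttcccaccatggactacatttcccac
Zfp120, chr2:150136679-150136928, minus strand, values on no array: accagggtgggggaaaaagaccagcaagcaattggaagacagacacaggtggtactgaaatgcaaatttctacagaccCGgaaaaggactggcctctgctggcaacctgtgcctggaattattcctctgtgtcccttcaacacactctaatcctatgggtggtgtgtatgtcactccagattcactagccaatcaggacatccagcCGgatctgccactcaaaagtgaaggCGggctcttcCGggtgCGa
The Zfp91 stretch has 22 CG dinucleotides and 58.0% GC, the Zfp14 stretch 7 and 57.2%, and the Zfp120 stretch 5 and 51.6%.

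These 3 stretches differ more in their number of CG dinucleotides than the medians over all Zfp genes of like patterns. Promoters were matched for 130 of the 162 Zfp genes, whose median GC content was 58.0%, against 59.6% for other genes on the array and 52.4% for all promoters of the table. Zfp genes with values on all 4 arrays had a median of 58.2% GC and 15.25 CG dinucleotides (46 genes matched). Those with values on both control arrays but not on both AT-EAE arrays had 59.6% and 14 (51 genes), and those with no value 54.0% and 12 (21 genes). Among other genes the medians were 60.0% and 16.1 CG dinucleotides with values on all 4 arrays, and 56.0% and 9 with none. CG, which reads the same on both strands, occurred in 100% of Zfp promoters, 98.7% of those of other genes on the array and 92.1% of all promoters in the table. Each is a description of this window alone.

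Position in the genome also varied. By RefSeq, chromosome 7 held 36 Zfp genes and chromosome 17 held 23. Chromosome 7 genes had values for 28, 25, 18 and 14 of the 36 on C12, C34, E12 and E34, and chromosome 17 genes for 19, 17, 15 and 8 of the 23. Against spot-matched genes, chromosome 7 genes were short by 7.40, 9.21, 20.8 and 14.5 points, and chromosome 17 genes by 0.38, 1.83, 2.11 and 14.4 points. Another Zfp gene on the array lay within 500 kb of 89 of the 162 genes. Of these clustered genes, 63 had values on both control arrays and 24 of the 63 on both AT-EAE arrays. Of the 73 genes with no such neighbour, 58 had values on both control arrays and 30 of the 58 on both AT-EAE arrays. Clustered genes had fewer spots, with a mean of 1.54 against 1.82. Against spot-matched genes, clustered genes were short by 4.93 and 5.96 points on C12 and C34, and by 12.4 and 21.3 points on E12 and E34. The genes with no such neighbour were short by 1.74 points on C12 and above by 0.49 points on C34. On E12 and E34 they were short by 12.5 and 13.2 points. A shortfall of clustered genes was thus present in control cord too.

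Other families of zinc finger and transcription factor genes also had fewer values in AT-EAE. The mean share changed by -45.7 to -12.5 points over the 10 families compared, against -19.3 points for all genes other than Zfp genes. Sox genes (-12.5), Zkscan and Zscan genes (-14.3) and Zc3h genes (-19.2) lost no more than that. These families and the Fox genes had the same share with a value on E12 as on C34. The 49 genes of other C2H2 families (Zbtb, Zkscan, Zscan, Klf, Zic, Egr, Gli and Ikzf) had values for 91.8% and 81.6% on C12 and C34, and 67.3% and 34.7% on E12 and E34. Zbtb genes, with a BTB domain beside their fingers, went from 95.7% and 78.3% of 23 genes to 56.5% and 26.1%. The 53 Rnf genes, which encode RING finger proteins, many of them ubiquitin ligases, were at 92.5% and 86.8% in control cord, and 75.5% and 56.6% in AT-EAE cord. The 50 Fox, Sox, Hox and nuclear receptor genes were at 78.0% and 66.0% in control cord, and 58.0% and 38.0% in AT-EAE cord. Set against all 165 genes of the 10 families, weighted by spots, the gap of Zfp genes was -4.76 and -0.59 points in control cord, and -6.26 and -6.04 points in AT-EAE cord. Its change was -3.48 points (2-sided exact permutation p = 0.333), against -11.7 points with all other genes. A value loss particular to Zfp genes among such families was therefore not shown.

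**Figure D4:**
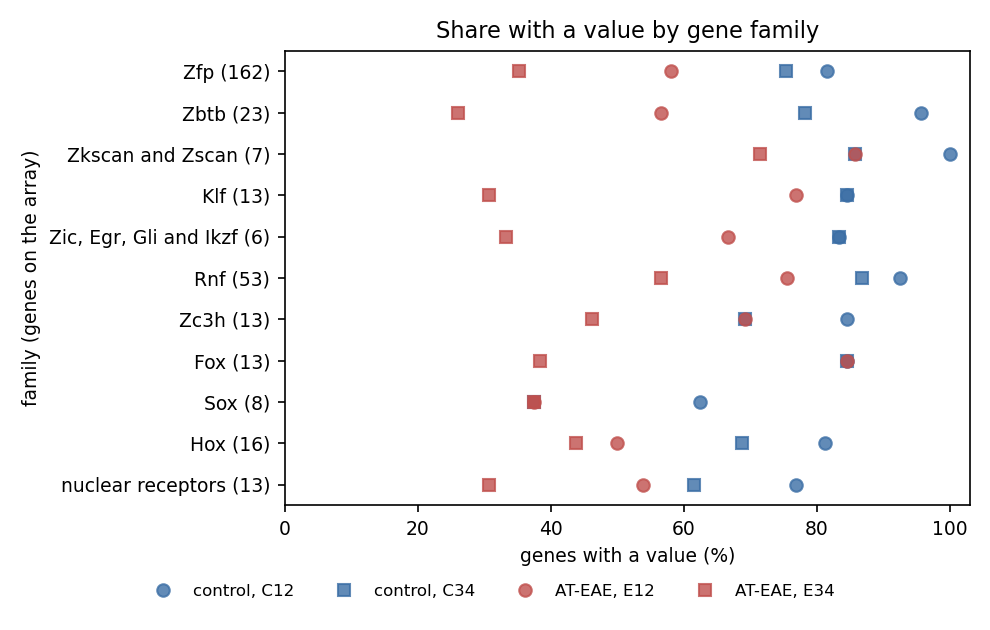
Percentage of genes with a value (x axis) for Zfp genes and 10 comparison families (rows, with the number of genes on the array), with 1 point for each array and overlapping points where shares are equal. Zbtb genes reach 26.1% on E34, below the 35.2% of Zfp genes, and Rnf genes 56.6%.

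The genes of corepressors through which KRAB proteins act, and of related silencing factors, kept nearly all their values. Of 15 genes of this list, 14 were on the array, and all 14 had values on both control arrays and on E12. On E34 12 of the 14 had one, the exceptions being the DNA methyltransferase gene Dnmt1 and Morc3. They had 38 spots, or more spots per gene than Zfp genes. Against genes of equal spot number, they lay above by 7.91, 11.8, 17.1 and 17.9 points on the 4 arrays. Trim28, the KRAB corepressor itself, had ratios of 0.10 and 0.16 on C12 and C34, and 0.19 and 0.57 on E12 and E34. The histone methyltransferase gene Setdb1 was at 0.05, 0.01, 0.06 and 0.16 in the same order. Cell type markers on the array were few. Oligodendrocyte markers had values for 2 of 2 genes on every array, and astrocyte markers for 4, 4, 4 and 3 of 4. Neuron markers had them for 4, 4, 3 and 2 of 4, macrophage and microglia markers for 4, 5, 5 and 3 of 5, and the 1 T cell marker on the array had none. B cell markers had values for 2, 1, 1 and 1 of 2 genes, neutrophil markers for 4, 4, 3 and 3 of 4, and the 1 skeletal muscle marker on the control arrays alone. Red blood cell markers had them for 3, 2, 2 and 2 of 3, and markers of meninges and fibroblasts for 3, 3, 3 and 2 of 4. The part of cell makeup in the loss of Zfp values was not tested.

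The ratios themselves compare the 2 extracts of an array. No Zfp gene, as a mean over its spots, reached an absolute log2 ratio of 1 on any array, a 2-fold difference if the base is 2. Among all genes with a value, 0.136%, 0.391%, 0.365% and 1.07% did so on C12, C34, E12 and E34, so that few were to be found among this many Zfp genes. Single spots of Zfp618 on C12 and E34, and of Zfp131, Zfp638 and Zfp750 on C34, lay below -1. At an absolute ratio of at least 0.5 there were 3 Zfp genes on C12, 10 on C34, 3 on E12 and 7 on E34. These were 2.27%, 8.20%, 3.19% and 12.3% of the Zfp genes with a value, against 2.82%, 5.77%, 3.42% and 15.1% of all genes. Zfp shares were thus near those of all genes on each array.

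The median Zfp ratio was close to the array median on every array, at 0.00, -0.05, -0.01 and -0.07 relative to it. Zfp genes below the array median numbered 66 of 132, 71 of 122, 49 of 94 and 33 of 57. The spread over Zfp genes, a standard deviation from the median absolute deviation, was 0.17 and 0.25 in control cord, and 0.20 and 0.30 in AT-EAE cord, against 0.18 and 0.23, and 0.17 and 0.33, for other genes. Its mean was 0.21 ± 0.06 (SD, n = 2 arrays) for control cord, against 0.25 ± 0.07 (SD, n = 2 arrays) for AT-EAE cord. The 2 means differed by 0.04, less than the SD of either group (2-sided exact permutation p = 0.667). The difference was -0.01 without E34. Between spots of the same Zfp gene the standard deviation was 0.26, 0.32, 0.19 and 0.39 on the 4 arrays, larger than the spread over genes on C12, C34 and E34. It rested on 45, 38, 22 and 9 Zfp genes with values on 2 or more spots. For other genes it was 0.24, 0.28, 0.24 and 0.36. Averaging over spots narrows the spread over genes.

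**Figure D5:**
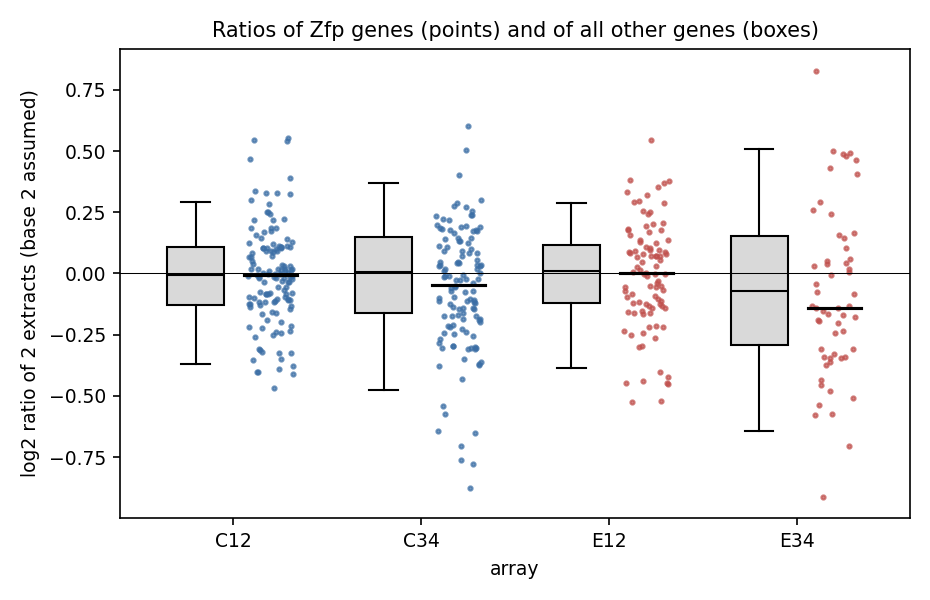
Log2 ratio between the 2 extracts of an array (y axis, base 2 assumed) on the 4 arrays (x axis). Points are Zfp genes with their median as a line; grey boxes give the quartiles of all other genes, with whiskers at the 5 and 95 percentiles. Every point lies between -1 and 1, and the widest scatter is on E34.

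Single Zfp genes stood at the edges of this scatter. Zfp91 had the highest Zfp ratio on E34, at 0.83, and the second lowest on C34, at -0.78, with 0.25 on C12 and -0.13 on E12. Its 1 spot gives no error. Zfp638, which encodes the nuclear DNA-binding protein NP220, was lowest on C34 at -0.87 and was at -0.70 on E34, but near 0 on C12 (0.07) and E12 (0.00). Its 2 spots on C34 were at -0.55 and -1.20, and only the first had a value in AT-EAE. Both genes therefore varied between the arrays of each group.

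Other extremes came mostly from genes with few spots. On C12 the lowest were Zfp560 at -0.47, Zfp618 at -0.41 and Zfp53 at -0.40, and the highest Zfp407, Zfp28 and Zfp219 at 0.55, 0.55 and 0.54. On C34, besides Zfp638 and Zfp91, Zfp105 at -0.76 was lowest, and Zfp790, Zfp61 and Zfp628 were highest at 0.60, 0.50 and 0.40. On E12 Zfp750, a regulator of epidermal differentiation, was lowest at -0.53, followed by Zfp560 at -0.52 and Zfp335 at -0.45. Zfp512 at 0.54, Zfp524 at 0.38 and Zfp61 at 0.38 were highest there. On E34 Zfp513 at -0.91, Zfp638 at -0.70 and Zfp358 at -0.58 were lowest, and Zfp91, Zfp664 at 0.50 and Zfp740 at 0.49 highest. Zfp513 had no value on the other 3 arrays.

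Some genes lay on 1 side of the array median throughout. Among the 54 Zfp genes with values on all 4 arrays, 6 lay above it on all 4 and 7 below, together 24.1%, against 22.9% of other such genes. Zfp110 was at 0.47 and 0.22 on C12 and C34 and at 0.29 and 0.43 on E12 and E34, all from 1 of its 2 spots. Zfp873 was at 0.19 and 0.24 in control cord, and 0.29 and 0.48 in AT-EAE cord. Zfp451, whose product is a SUMO ligase, was at -0.31 and -0.30 in control cord, and -0.16 and -0.57 in AT-EAE cord. Its values too came from 1 of its 2 spots. Zfp281 was at -0.24 and -0.37 in control cord, and -0.22 and -0.37 in AT-EAE cord. Only 1 of its 3 spots had values on all 4 arrays, at -0.37 and -0.08 in control cord, and -0.05 and -0.37 in AT-EAE cord. The channel in the numerator is not given in the sources used here, so the sign says only that these genes lay together on 1 side.

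A shift shared by all 4 arrays was tested with limma over the 10133 spots with values on all 4, as the mean ratio of the 2 groups against 0. None of the 68 Zfp spots, from 54 genes, passed a Benjamini-Hochberg adjusted p of 0.05, and 0.0395% of all spots did so. At an unadjusted limma p under 0.05 there were 9 Zfp spots, or 13.2%, against 12.6% of all spots. The smallest p belonged to Zfp110, with a mean ratio of 0.35 ± 0.11 (SE, n = 4 arrays) and a limma adjusted p of 0.255. Zfp451 followed at -0.33 ± 0.11 (SE, n = 4 arrays; limma adjusted p = 0.293) and Zfp873 at 0.30 ± 0.11 (SE, n = 4 arrays; limma adjusted p = 0.310). With 1 array left out, 1 group held a lone array. For the Zfp genes that limma picked out in such a fit, only mean ratios are given. Without E12 these were -0.46 for Zfp410, -0.44 for Zfp451, -0.43 for Zfp60, -0.55 for Zfp618 and 0.43 for Zfp790, each from 1 spot. The Zfp618 spot was at -0.20 and 0.12 in control cord and at -1.06 on E34. The other Zfp60 spot was at 0.05, 0.40 and -0.12 on C12, C34 and E34. The Zfp410 spot differed in sign between the control arrays, at -0.91 on C12, 0.54 on C34 and -0.74 on E34. Of the further Zfp410 spots, 1 was near 0 on these arrays and 1 was at -0.29, 0.02 and -0.63. Without E34, 1 of the 2 Zfp750 spots had a mean ratio of -0.65, with -0.20, -1.34 and -0.53 on C12, C34 and E12. The other Zfp750 spot was at 0.22 and 0.04 on C12 and C34 and had no value in AT-EAE cord.

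Ratios of the genes with most spots varied. Zfp207 was at -0.02 and -0.01 in control cord, and -0.13 and -0.08 in AT-EAE cord, and Zfp592 at 0.04 and 0.23 in control cord, and 0.13 and -0.14 in AT-EAE cord. Zfp362 was at -0.01 and 0.04 in control cord, and 0.20 and 0.26 in AT-EAE cord. Only 1 of its 4 spots had values on all 4 arrays, and on C34 that spot alone was at 0.26. The C34 mean also took in a spot at -0.19 that had no value on the other arrays. Zfp618 was at -0.41 and 0.09 on C12 and C34 and at 0.01 and -0.44 on E12 and E34. Zfp131 was at -0.04 and -0.35 in control cord and 0.07 on E12. On C34 its spots were at -0.14, -0.11, -0.08 and -1.07, and the last of these had no value on E12. Zfp410 was at -0.40 and 0.20 in control cord, and 0.07 and -0.46 in AT-EAE cord. Spots of 1 gene could differ. The 4 Zfp618 spots with a value on E12 ran from -0.14 to 0.18, whereas 1 spot on C12 was at -1.17 and 1 on E34 at -1.06.

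Ratios on the control arrays were also compared between Zfp genes that kept their values and those that did not. On C12 the spread was 0.16 over the 54 genes with values on both AT-EAE arrays and 0.15 over the 67 without. On C34 it was 0.21 and 0.24. For other genes it was 0.16 and 0.18 on C12 and 0.22 and 0.25 on C34. Control ratios of Zfp genes without values on both AT-EAE arrays were thus about as scattered as those of Zfp genes with them. On C34 the median ratio was -0.20 over the 30 Zfp genes with values on the control arrays alone and -0.01 over the 54 with values on all 4 arrays, against -0.07 and 0.02 for other genes in the same patterns. On C12 no such lower median was seen: it was 0.00 over the 30 and -0.02 over the 54, against 0.05 and -0.01 for other genes.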

How the data were processed

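Arrays were grouped by the labels as control or AT-EAE. The authors deposited 1 log2 value per spot and array, a ratio of normalized green and red signals per the labels; base 2 was assumed, since the base is not given in the sources used here. The direction, background correction, spot filter, normalization and software of the authors are not given either, so why a spot lacks a value is unknown. Signal over background was not analysed here, and the number of arrays limits the precision.

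Symbols came from the platform's table, whose gene identifiers matched GRCm38.p6 RefSeq for all 162 Zfp genes; 937 spots with several genes and 9256 with none were left out. A gene had a value if any of its spots had one, and its ratio was the mean over those spots. Shares and spreads were compared by 2-sided exact permutation tests over arrays of pooled mice. These set the observed difference among those of all 6 splits of the arrays. Full separation of the groups gives an exact permutation p = 0.333 whatever the spread between arrays. limma was fitted over all spots. Both kinds of script were checked on simulated data. Python 3.11.15, numpy 2.4.6, pandas 2.3.3, scipy 1.17.1, matplotlib 3.10.9, R 4.3.3 and limma 3.58.1 were used.

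Named genes were, on each array, the 3 lowest and 3 highest Zfp ratios; the 8 largest mean absolute ratios relative to the array over 4 arrays; the 5 genes with most spots; the genes called by limma; up to 8 genes with most spots among those with values on the control arrays alone; any with values on both AT-EAE arrays alone; and a list of known regulators. The Zfp genes and all lists were chosen with earlier results of these data known. Grouping by zinc finger number or KRAB domain was not done, since no protein sequences were used here.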

Additional observations from a re-analysis of the deposited data

How the results depend on the processing

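The change in share, in gap to matched genes and in odds of a value stayed below 0 under every alternative run for them. The change in gap ran from -14.3 to -3.48 points, with -6.66 points when a value was required on most of a gene's spots, -8.66 for single-spot genes, and -6.60 against other spots within 100 spot numbers; this last comparison and that with the 10 families (-3.48) were chosen after seeing the data. With arrays paired by number (replicate block), the change in gap was again -11.7 points and that in share -31.8 points (exact permutation p = 0.5, the smallest it allows); the numbers name extracts only, and deviations of same-numbered arrays correlated at -0.29 over 5429 genes. Leaving out 1 array gave changes in share from -43.2 to -20.4 points. The share of Zfp genes kept on both AT-EAE arrays was 32.7% for single-spot genes (56.0% for other genes), 27.8% with a value on most of the spots (50.1% for matched genes), and from 40.9% to 73.6% with 1 array left out. Among single-spot genes the median Zfp ratio relative to the array was -0.070 on E12 and 0.039 on E34; the cause was not tested. The difference in spread ran from -0.0061 to 0.095 with 1 array left out, and limma called from 0 to 5 Zfp genes, where a lone array was assumed to vary like the other group. Updating symbols changed none of the Zfp genes. Zfp36 and its relatives, when included, gave a change in gap of -10.6 points. With 2 arrays a group no exact permutation test over arrays could pass 0.05, and the loss of values over whole arrays and AT-EAE cannot be told apart.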
